A study of Mus musculus with 6 samples.

Results

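The genes described here are 31 genes of lipoprotein metabolism, 13 of them apolipoprotein genes and 18 coding for proteins that assemble, remodel, transfer or take up lipoproteins. They were chosen by name out of the 55450 genes in the count files, from knowledge of lipoprotein biology and with earlier results of these data known. All 31 were found under a unique identifier. The data are 6 bulk RNA-Seq libraries of primary hepatocytes from male C57BL/6 mice (C57BL/6J in the study's methods) on normal diet, 3 taken at 0 h from undamaged livers and 3 at 48 h after partial hepatectomy (PHx), an operation in which most of the organ is cut away. No group carried a transgene or a drug treatment. The labels give an age of 10 to 12 weeks, and the age in the paper is slightly lower. Each library is 1 hepatocyte preparation, isolated by 2-step collagenase perfusion, and the 0 h livers were undamaged rather than sham-operated, so that effects of surgery and of regrowth cannot be told apart. The comparison asks how the transcripts of the hepatocyte's lipoprotein machinery stood at a time when many hepatocytes are dividing.

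As background, the hepatocyte loads triglyceride and cholesterol onto apolipoprotein B to make very low-density lipoprotein (VLDL), with the transfer protein Mttp, and exports it in large COPII carriers. It also secretes apolipoprotein A-I, the main protein of high-density lipoprotein (HDL), which collects cholesterol through the transporters Abca1 and Abcg1. In plasma, lipases and transfer proteins reshape the particles, and the liver takes the remnants back through Lrp1 and related receptors and HDL cholesterol through Scarb1.

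The libraries held 31419443 to 36346220 gene counts, so that 3 counts, taken as the floor, correspond to 0.0825 to 0.0955 CPM, the usual unit of counts scaled to a common library size. Levels below are CPM after TMM normalization unless said otherwise. All 16 hepatocyte markers of a fixed list were detected, and their summed level ran from 105965 to 127930 CPM at 0 h and from 81514 to 120143 CPM at 48 h. Of these, Hpx, Fga and Fgb rose (log2 fold change 0.84 to 1.87) and Alb (-0.86), Cyp2e1 (-1.71) and G6pc (-3.14) fell. Among markers of other liver cells, 13 of 14 endothelial genes fell, and their sum ran from 312 to 477 CPM at 0 h and from 213 to 245 CPM at 48 h. Of 12 Kupffer cell genes 4 rose and none fell (86.6 to 129 CPM at 0 h, 128 to 155 CPM at 48 h), and of 13 stellate cell genes 1 rose and 3 fell (159 to 246 CPM and 119 to 151 CPM). Of 8 cholangiocyte genes only Sox9 and Spp1 were counted highly enough to test and Spp1 rose, the summed level of the list being 9.42 to 20.8 CPM at 0 h and 16.7 to 26.2 CPM at 48 h. The 12 monocyte and neutrophil markers summed to at most 1.57 CPM, with Mpo and Retnlg at 0 counts, and Csf3r, the single one tested, fell. The 8 lymphocyte markers summed to at most 0.448 CPM with Cd3d at 0 counts, and the 6 adipocyte markers to at most 9.64 CPM, with Lep at 0 counts and Plin4, the single one tested, not passing.

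All 31 genes passed the filter of at least 10 counts in at least 3 libraries. At 48 h, 16 of the 31 (51.6%) had fallen and 2 (6.45%) had risen, with 0.05 as the limit for the adjusted p of the edgeR quasi-likelihood F test, while 13 did not pass. Over all 17037 genes tested, 19.3% were lower and 21.4% higher, 40.7% in all. Scaled by library size alone, 13 members were lower, where 12.4% of all genes tested were lower. The share of higher genes among all calls was then 71.6% in place of 52.5%. The median log2 fold change (48 h over 0 h) was -0.47 over the 31 genes and -0.0033 over all genes tested. Highly counted genes as a whole leaned the same way. Of the 1378 genes whose mean reached 100 CPM, 39.7% were lower and 15.8% higher, with a median of -0.23, and of the 17 lipoprotein genes above that level 8 (47.1%) were lower and 1 was higher, with a median of -0.41. Of the 14 lipoprotein genes under that level, 8 (57.1%) were lower and 1 was higher, with a median of -0.62, against 17.5% lower, 21.8% higher and a median of 0.02 over the 15659 genes tested there. The members' share of lower genes was thus near the background among highly counted genes and above it among the rest. All 3 libraries at 48 h lay below all 3 at 0 h for 21 of the 31 genes, against 25.0% of all genes tested, and above them for 2 genes, against 27.8% (23 genes without overlap in either direction, against 52.7%). In bulk libraries, fewer cells of a type and less RNA per cell cannot be told apart.

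**Figure D1:**
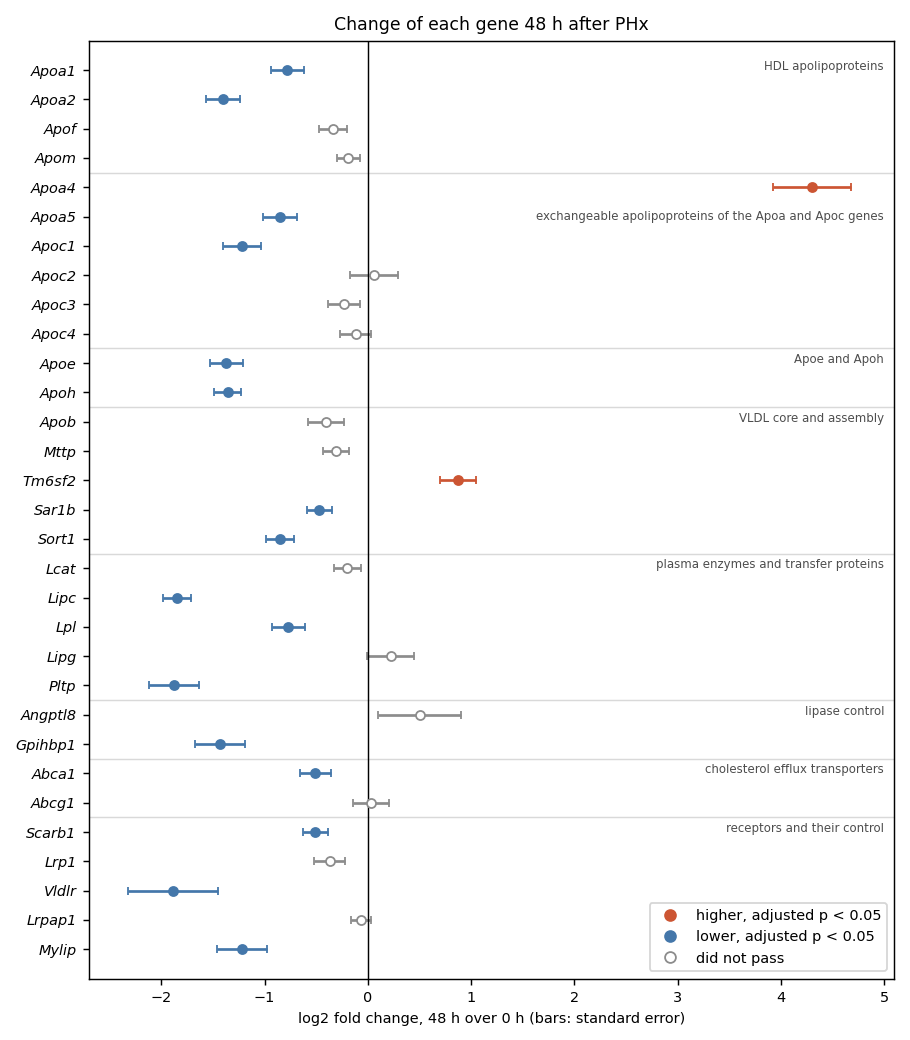
Log2 fold change (48 h over 0 h, horizontal axis) of the 31 lipoprotein genes with its standard error, in the TMM-normalized edgeR fit on 3 libraries per time point, grouped by role. Filled points passed an adjusted p under 0.05; 16 lie left of 0, and only Apoa4 at 4.30 and Tm6sf2 at 0.87 lie right of it.

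The transcripts of the major HDL proteins fell. Apoa1, the structural protein of HDL and the activator of cholesterol esterification in plasma (ENSMUSG00000032083.8; chromosome 9, 46228580 to 46230466, plus strand, GRCm38), stood at 6608, 5344 and 6263 CPM in the 3 libraries at 0 h and at 3367, 3518 and 3757 CPM at 48 h. The groups did not overlap, and the log2 fold change was -0.78 (standard error 0.16, edgeR adjusted p = 0.00321). Apoa2, the second most abundant HDL protein (ENSMUSG00000005681.12; chromosome 1, 171225054 to 171226379, plus strand), fell further. It stood at 3713, 3502 and 4346 CPM at 0 h and at 1334, 1674 and 1383 CPM at 48 h, a log2 fold change of -1.40 (standard error 0.165, edgeR adjusted p = 0.000101). Within libraries, the level of Apoa2 per base of exon was 1.29, 1.51 and 1.60 times that of Apoa1 at 0 h and 0.912, 1.10 and 0.847 times at 48 h. Every library at 48 h had a lower ratio than every library at 0 h (exact permutation of the log2 ratios, two-sided, p = 0.1, the lowest value 3 libraries against 3 can give, and 0.138 adjusted over the 11 ratios tried). Because both genes are read from the same library, this ratio does not depend on the normalization.

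Both minor HDL apolipoproteins showed smaller differences that did not pass. Apof, a regulator of cholesteryl ester transfer, stood at 568, 590.2 and 626 CPM at 0 h and at 497, 508 and 406 CPM at 48 h, with a log2 fold change of -0.34 (edgeR adjusted p = 0.0695). It passed with DESeq2 (adjusted p = 0.0299) and with TMM factors from protein-coding genes (adjusted p = 0.0357). Apof did not pass in the other 12 alternatives, with edgeR adjusted p up to 0.437 (library size in place of TMM). Apom, the carrier of sphingosine-1-phosphate on HDL, had a log2 fold change of -0.19 (edgeR adjusted p = 0.193), with 131, 138 and 143 CPM at 0 h and 131, 112 and 118 CPM at 48 h.

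**Figure D2:**
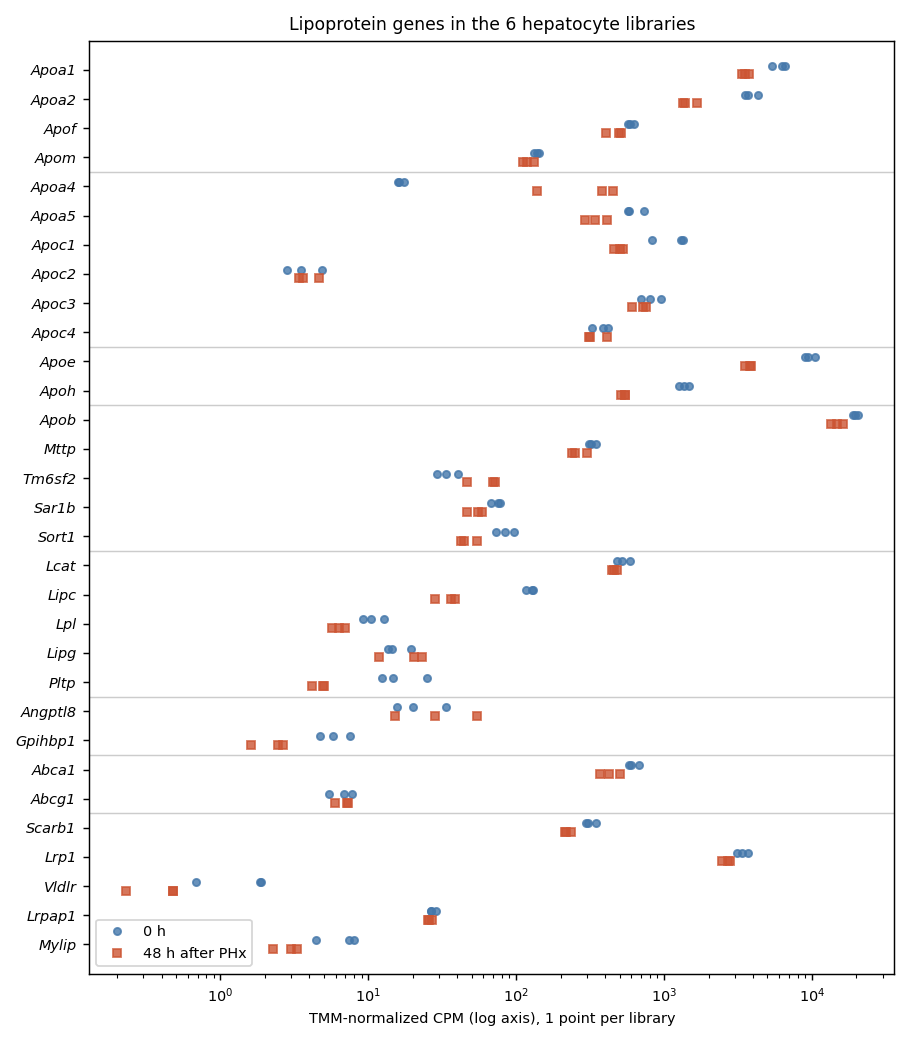
TMM-normalized CPM on a log axis for each of the 31 genes, with 1 point per library (circles, 3 libraries at 0 h; squares, 3 at 48 h after PHx). Apob is the highest at 13347 CPM or more in every library, Vldlr the lowest at 1.87 CPM or less, and Apoa4 is the gene whose 2 groups lie farthest apart.

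The largest difference of all 31 genes was in Apoa4, and its direction was opposite to that of Apoa1 and Apoa5 in the same cluster. Apoa4 codes for an apolipoprotein of chylomicrons and HDL that is made mainly by the intestine and, in rodents, also by the liver. It lies between Apoc3 and Apoa5 in a cluster of 4 apolipoprotein genes that spans 43.3 kb of chromosome 9 (ENSMUSG00000032080.6; 46240696 to 46243459, plus strand). It stood at 16.0, 17.4 and 15.9 CPM at 0 h and at 383, 451 and 138 CPM at 48 h, so that all libraries at 48 h were far above those at 0 h, and replicate 3 was the lowest of the 48 h libraries. The log2 fold change was 4.30, a 19.7-fold difference (standard error 0.377, edgeR adjusted p = 1.28e-05). Genes on the other strand cover 69.8% of its exon bases, and since the sources used here do not say whether counting was by strand, its absolute level is uncertain. Those genes, Gm10680 and Gm47528, were listed at 0 counts and at 3 to 8 counts per library.

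Of the 3 other genes of this cluster, Apoa1 and Apoa5 fell and Apoc3 did not pass. Apoa5, an activator of triglyceride clearance from plasma, stood at 579.5, 735 and 568 CPM at 0 h and at 341, 408 and 294 CPM at 48 h (log2 fold change -0.85, standard error 0.163, edgeR adjusted p = 0.00207). Genes on the other strand cover 20.8% of its exon bases, and the one there, Gm47544, was listed at 0 counts in every library. Apoc3, an inhibitor of triglyceride clearance that is transcribed from the opposite strand beside Apoa1, stood at 799, 702 and 948 CPM at 0 h and at 725, 753 and 609 CPM at 48 h. Its groups overlapped, with a log2 fold change of -0.23 (standard error 0.155, edgeR adjusted p = 0.266). Per base of exon, Apoa4 was at 0.00165, 0.00222 and 0.00173 of the level of Apoa1 at 0 h and at 0.0775, 0.0873 and 0.0251 of it at 48 h. The mean log2 ratio of the pair differed by 4.90 between the time points, without overlap (exact permutation, two-sided p = 0.1, again the lowest possible).

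The second cluster, on chromosome 7, holds Apoe, Apoc1, Apoc4 and Apoc2 on the minus strand within 27.6 kb, and there Apoe and Apoc1 fell and the other two did not pass. Apoe, the ligand by which remnants are taken up (ENSMUSG00000002985.16; 19696109 to 19699188), stood at 9464, 9022 and 10489 CPM at 0 h and at 3893, 3523 and 3807 CPM at 48 h. No library overlapped, and the log2 fold change was -1.37 (standard error 0.161, edgeR adjusted p = 9.72e-05). Apoc1, a small apolipoprotein that hinders remnant uptake and activates cholesterol esterification (ENSMUSG00000040564.14; 19689481 to 19692660), stood at 1301, 830.1 and 1338 CPM at 0 h and at 458, 525 and 503 CPM at 48 h. It fell by 1.22 on the log2 scale (standard error 0.188, edgeR adjusted p = 0.000534). The neighbouring Apoc4, at 385, 328 and 415 CPM and then 315, 414 and 312 CPM, had overlapping groups and a log2 fold change of -0.12 (standard error 0.153, edgeR adjusted p = 0.581). Per base of exon, Apoe stood at 29.2, 32.6 and 30.0 times Apoc4 at 0 h and at 14.7, 10.1 and 14.5 times at 48 h, while its ratio to Apoc1 overlapped between the time points (2.53 to 3.78 and 2.34 to 2.96; exact permutation, two-sided p = 0.6).

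Apoc2, the cofactor of lipoprotein lipase, was counted at only 2.80 to 4.87 CPM, with a log2 fold change of 0.06 (standard error 0.234, edgeR adjusted p = 0.85). This value says little about the gene. A transcript on the same strand, Gm44805, covers 79.5% of the exon bases of Apoc2 and was listed at 0 counts in every library. Reads on bases that 2 genes share are set aside as ambiguous in the default mode of HTSeq, and the mode used is not given in the sources used here.

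**Figure D3:**
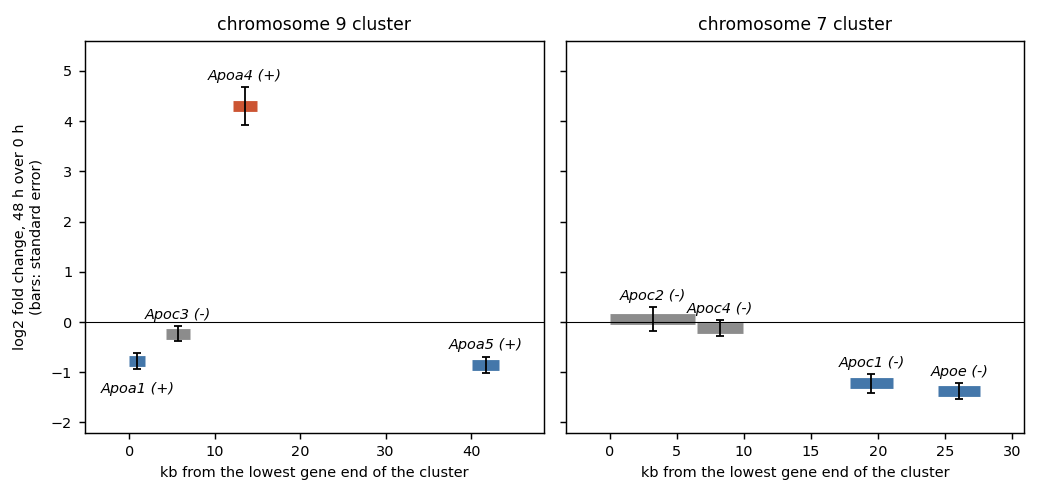
Position of each apolipoprotein gene within the chromosome 9 and chromosome 7 clusters (kb from the lowest gene end; strand in parentheses) against its log2 fold change, 48 h over 0 h, with the standard error. Apoa4 stands at 4.30 between neighbours at -0.23 and -0.85, and on chromosome 7 Apoe and Apoc1 lie below -1 while Apoc4 and Apoc2, the latter with an uncertain count, lie near 0.

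The sequences just upstream of 6 of these genes are printed: Apoa4 with Apoa1 and Apoa5, which moved in the opposite direction, Apoe with Apoc4, of which the first fell and the second did not pass, and Apoa2, the highest of the 31 genes per base of exon at 0 h. They are taken from RefSeq on GRCm38.p6, which held a promoter window for 21 of the 31 genes, and each runs 5′ to 3′ on the strand of its gene and stops before the transcription start of both RefSeq and GENCODE. Capitals mark matches on either strand to any of 5 motifs. These are the letters AGGTCA, which many nuclear receptors bind, the letters TGTTTAC, which forkhead factors bind, and the pattern TTCNNNGAA, which STAT factors bind. The remaining motifs are the E-box, spelled CACGTG, and the letters TATAAA, which form a TATA box when close before a transcription start. The windows are chr9:46240594-46240695 for Apoa4, chr9:46228380-46228579 for Apoa1, chr9:46268383-46268632 for Apoa5, chr7:19699189-19699438 for Apoe, chr7:19681480-19681710 for Apoc4 and chr1:171224804-171225053 for Apoa2.
Apoa4: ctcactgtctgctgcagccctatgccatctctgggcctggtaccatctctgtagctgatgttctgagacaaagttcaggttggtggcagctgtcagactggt
Apoa1: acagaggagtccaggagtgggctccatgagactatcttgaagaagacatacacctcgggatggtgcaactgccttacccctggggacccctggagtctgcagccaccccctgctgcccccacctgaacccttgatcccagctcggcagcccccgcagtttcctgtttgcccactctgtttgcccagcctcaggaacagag
Apoa5: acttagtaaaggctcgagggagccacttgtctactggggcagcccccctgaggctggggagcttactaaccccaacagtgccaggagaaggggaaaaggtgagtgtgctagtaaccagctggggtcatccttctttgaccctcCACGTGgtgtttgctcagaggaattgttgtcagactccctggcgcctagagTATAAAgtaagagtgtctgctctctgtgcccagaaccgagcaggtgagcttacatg
Apoe: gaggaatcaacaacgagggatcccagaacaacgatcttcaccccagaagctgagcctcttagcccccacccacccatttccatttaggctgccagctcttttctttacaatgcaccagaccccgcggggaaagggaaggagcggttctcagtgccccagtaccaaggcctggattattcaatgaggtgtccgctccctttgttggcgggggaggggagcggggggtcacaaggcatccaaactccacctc
Apoc4: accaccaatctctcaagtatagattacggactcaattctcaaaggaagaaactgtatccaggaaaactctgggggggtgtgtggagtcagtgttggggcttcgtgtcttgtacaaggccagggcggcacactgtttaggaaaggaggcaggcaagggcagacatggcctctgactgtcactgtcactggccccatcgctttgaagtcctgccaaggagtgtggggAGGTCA
Apoa2: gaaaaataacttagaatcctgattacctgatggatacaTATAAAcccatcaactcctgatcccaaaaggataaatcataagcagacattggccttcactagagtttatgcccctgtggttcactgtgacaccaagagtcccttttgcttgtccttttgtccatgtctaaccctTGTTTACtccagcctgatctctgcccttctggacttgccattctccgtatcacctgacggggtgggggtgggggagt
The printed stretches of Apoa4, Apoa1 and Apoe hold none of the 5 motifs. That of Apoa5 holds the E-box and the letters TATAAA 56 bases before the RefSeq start, that of Apoc4 a nuclear receptor motif as its last bases, and that of Apoa2 the forkhead motif 77 bases before the RefSeq start and TATAAA 212 bases before it. In the 250 bases before the RefSeq start, the nuclear receptor motif occurred in 3 of the 21 genes, the forkhead motif in 2, the STAT motif in 1, the E-box in 2 and TATAAA in 5. Over all 32851 promoter windows of that length, the shares were 14%, 3.17%, 7.02%, 6.02% and 12.4%, in the same order. These are matches of letters and not measured binding.

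Apoh (beta-2-glycoprotein I), a phospholipid-binding plasma protein on chromosome 11 (ENSMUSG00000000049.11; 108343354 to 108414396, plus strand), fell about as far as Apoe. It stood at 1255, 1476 and 1374 CPM at 0 h and at 545, 543 and 513 CPM at 48 h, a log2 fold change of -1.36 (standard error 0.134, edgeR adjusted p = 2.88e-05).

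Neither Apob nor Mttp passed the test. Apob (ENSMUSG00000020609.14; chromosome 12, 7977648 to 8016835, plus strand), the protein around which VLDL is built, was the most highly counted of the 31 genes. It stood at 19075, 20416 and 19446 CPM at 0 h and at 14783, 13347 and 16089 CPM at 48 h. The groups did not overlap in CPM, but the log2 fold change of -0.41 (standard error 0.175) had an edgeR adjusted p of 0.0834. DESeq2 gave an adjusted p of 0.00199. Apob did not pass in the other 13 alternatives, with edgeR adjusted p up to 0.366 (library size in place of TMM). Mttp, which transfers lipid onto the growing particle, stood at 322, 346 and 313 CPM at 0 h and at 239, 250.2 and 300.0 CPM at 48 h (log2 fold change -0.31, edgeR adjusted p = 0.0764). It passed with DESeq2 (adjusted p = 0.0391), with TMM factors from protein-coding genes (0.0464) and without replicate 3 at 48 h (0.0383). Mttp did not pass in the other 11 alternatives, with edgeR adjusted p up to 0.575 (library size in place of TMM). Against Apob, the per-base level of Apoe was 2.88 to 3.52 times at 0 h and 1.54 to 1.72 times at 48 h, without overlap (exact permutation, two-sided p = 0.1, the lowest possible). The ratio of Apoa1 to Apob overlapped between the time points (3.91, 2.95 and 3.63 at 0 h and 2.57, 2.97 and 2.63 at 48 h; exact permutation, two-sided p = 0.2).

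Of the accessory factors of VLDL secretion, 1 rose and 2 fell, where 21.4% of all genes tested were higher and 19.3% lower. Tm6sf2, an endoplasmic reticulum protein needed for full lipid loading of VLDL, stood at 29.3, 33.7 and 40.2 CPM at 0 h and at 71.9, 69.9 and 46.6 CPM at 48 h. Its log2 fold change was 0.87 (standard error 0.174, edgeR adjusted p = 0.00273), and replicate 3 at 48 h lay closest to the 0 h libraries. Sort1 (sortilin), a sorting receptor for apolipoprotein B, fell from 84.0, 96.2 and 73.5 CPM to 42.5, 44.1 and 53.9 CPM (log2 fold change -0.85, standard error 0.134, edgeR adjusted p = 0.0006). Sar1b, the GTPase that starts the COPII coat on large cargo, fell from 67.3, 75.6 and 78.2 CPM to 46.4, 55.1 and 58.6 CPM (log2 fold change -0.47, standard error 0.118, edgeR adjusted p = 0.00966), a call that was lost with library size in place of TMM (log2 fold change -0.26, adjusted p = 0.139).

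Among the enzymes and transfer proteins of plasma, 3 of 5 fell and none rose, where 19.3% of all genes tested were lower and 21.4% higher. Lipc, hepatic lipase, which acts on remnants and HDL at the hepatocyte surface (ENSMUSG00000032207.10; chromosome 9, 70798128 to 70952226, minus strand), stood at 116, 127 and 129 CPM at 0 h and at 28.4, 36.2 and 38.7 CPM at 48 h. This 3.6-fold drop had the lowest adjusted p of the 31 genes (log2 fold change -1.85, standard error 0.132, edgeR adjusted p = 2.68e-06). Pltp, which moves phospholipid between lipoproteins (ENSMUSG00000017754.13; chromosome 2, 164839518 to 164857711, minus strand), stood at 14.6, 12.3 and 24.9 CPM at 0 h and at 4.93, 5.01 and 4.17 CPM at 48 h. It fell by 1.88 on the log2 scale (standard error 0.245, edgeR adjusted p = 0.000187), and Ctsa on the other strand covers 19.3% of its exon bases. Ctsa had 5409, 6166 and 6747 counts at 0 h and 3445, 3871 and 3758 at 48 h, against 381 to 827 and 146 to 179 counts for Pltp, and its part in the result was not tested. Lpl, lipoprotein lipase, which hepatocytes of adult liver hardly make, was at 10.5, 12.8 and 9.22 CPM and then at 6.98, 5.68 and 6.35 CPM (log2 fold change -0.77, standard error 0.162, edgeR adjusted p = 0.00345).

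The other two enzymes did not pass. Lcat, the enzyme that esterifies cholesterol on HDL, stood at 523, 477 and 586 CPM at 0 h and at 482, 456 and 444 CPM at 48 h (log2 fold change -0.20, edgeR adjusted p = 0.252). Lipg, endothelial lipase, lies on chromosome 18 and stood at 13.6, 19.4 and 14.5 CPM and then at 11.9, 22.9 and 20.5 CPM, with overlapping groups (log2 fold change 0.22, edgeR adjusted p = 0.473).

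Of the proteins that control lipases, Gpihbp1, the anchor of lipoprotein lipase on capillary endothelium, fell from 4.74, 7.48 and 5.76 CPM to 2.44, 2.63 and 1.60 CPM (log2 fold change -1.43, standard error 0.242, edgeR adjusted p = 0.000983). These values rest on 139 to 232 counts per library at 0 h and 56 to 94 at 48 h. Of the 14 endothelial markers 13 fell as well, with a median over the list log2 fold change of -0.91, and their part in the differences of Gpihbp1, Lpl, Pltp, Vldlr and Mylip was not tested. Angptl8, a secreted inhibitor of lipoprotein lipase that responds to feeding, had the largest coefficient of variation of the 31 genes at 48 h (61.1%). It stood at 20.2, 33.6 and 15.6 CPM at 0 h and at 15.1, 28.4 and 54.3 CPM at 48 h, and its log2 fold change of 0.50 (standard error 0.398, edgeR adjusted p = 0.351) became -0.09 without replicate 3 at 48 h.

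The cholesterol efflux transporters stood at different levels. Abca1, which loads cholesterol onto apolipoprotein A-I, stood at 597, 676 and 583 CPM at 0 h and at 506, 366 and 427 CPM at 48 h, and fell by 0.51 on the log2 scale (standard error 0.15, edgeR adjusted p = 0.0196). This call was lost with library size in place of TMM (adjusted p = 0.101) and without replicate 2 (0.096) or replicate 3 (0.053) at 48 h. Abcg1, which exports cholesterol to mature HDL and is abundant in macrophages, was at 5.42 to 7.81 CPM at 0 h and at 5.92 to 7.31 CPM at 48 h (log2 fold change 0.03, edgeR adjusted p = 0.913).

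Of the receptors, Scarb1, the HDL receptor, stood at 304, 298 and 344 CPM at 0 h and at 214, 216 and 236 CPM at 48 h (log2 fold change -0.51, standard error 0.119, edgeR adjusted p = 0.00665), and did not pass with library size in place of TMM (adjusted p = 0.0742). Lrp1, the large remnant receptor, was by far the most highly counted receptor, at 3384, 3709 and 3116 CPM and then at 2687, 2446 and 2775 CPM. Its groups did not overlap, and the log2 fold change of -0.37 had an edgeR adjusted p of 0.0748, against 0.00865 with DESeq2 and 0.0499 with TMM factors from protein-coding genes. Lrp1 did not pass in the other 12 alternatives, with edgeR adjusted p up to 0.417 (library size in place of TMM). Lrpap1, the chaperone of Lrp1 in the endoplasmic reticulum, was nearly level, at 26.6 to 28.5 CPM and 25.2 to 26.8 CPM (log2 fold change -0.07, standard error 0.0971, edgeR adjusted p = 0.579).

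Vldlr and Mylip fell from low levels. Vldlr, a receptor for triglyceride-rich particles that is scarce in normal liver, was counted 20, 58 and 61 times at 0 h and 16, 17 and 8 times at 48 h, or 0.681, 1.87 and 1.84 CPM and then 0.475, 0.476 and 0.229 CPM. The log2 fold change was -1.89 with a wide standard error of 0.437 (edgeR adjusted p = 0.00604). Mylip, the ubiquitin ligase that marks receptors of the family for degradation and is induced by the sterol receptor LXR, stood at 4.43, 8.06 and 7.38 CPM at 0 h and at 3, 3.28 and 2.26 CPM at 48 h (log2 fold change -1.22, standard error 0.246, edgeR adjusted p = 0.00282). At 0 h, replicate 1 was the lowest library for Vldlr, Mylip and Gpihbp1, replicate 2 for Pltp and replicate 3 for Lpl. Replicate 1 was also the lowest at 0 h in the summed endothelial (312 CPM against 477 and 475 CPM), stellate (159 against 246 and 236 CPM) and Kupffer cell markers (86.6 against 129 and 129 CPM).

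Summed over the 31 genes, lipoprotein transcripts took 4.62%, 4.66% and 4.69% of all gene counts at 0 h and 3.17%, 3.27% and 3.58% at 48 h. To compare genes with each other, counts were divided by exon length and scaled to a common total in each library (TPM). The length was that of all annotated exons of a gene merged, such as 537 bases for Apoa2 and 2138 for Apoe. The order of genes by TPM therefore depends on the annotation. Shares of the TPM sum describe composition, and a gene's share can rise while its own level is lower. The 13 apolipoprotein genes summed to 58179, 54118 and 60802 TPM at 0 h and to 31995, 35765 and 35163 TPM at 48 h, with no overlap. At 0 h, Apoa2 led with 32.2% ± 1.33 (SD, n = 3 here and in the shares that follow) of the apolipoprotein TPM, before Apoa1 with 22.1% ± 1.60 and Apoe with 20.3% ± 0.492. At 48 h, Apoa1 had 26.0% ± 1.62, Apoa2 24.6% ± 2.26 and Apoe 15.9% ± 1.32, and the libraries of Apoa1 and Apoa2 overlapped in these shares. The share of Apob was 6.38% ± 0.745 at 0 h and 9.60% ± 1.13 at 48 h, although its mean TPM was 3663 at 0 h and 3289 at 48 h. That of Apoc3 was 3.60% ± 0.245 and then 6.21% ± 0.618. Apoa4 was 0.0411% ± 0.00557 at 0 h and 1.61% ± 0.796 at 48 h, and by mean TPM it ranked 22 of the 31 genes at 0 h and 10 at 48 h.

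**Figure D4:**
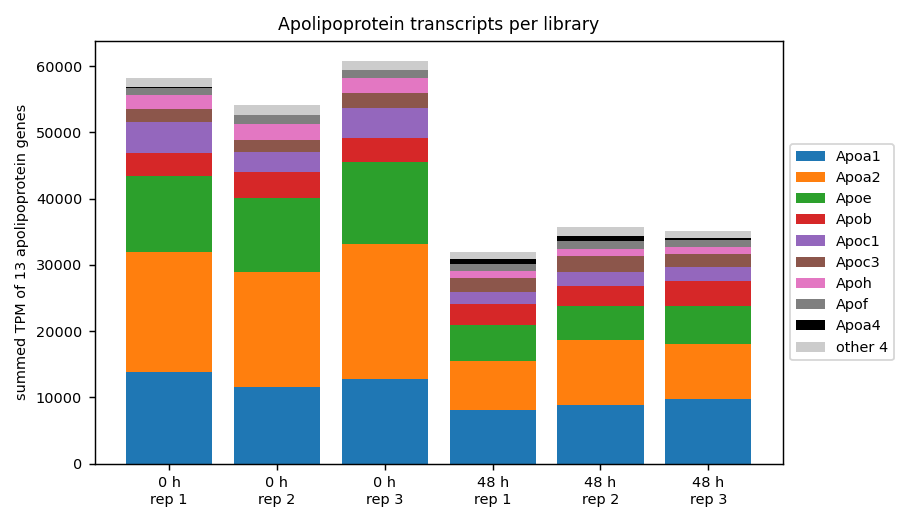
Summed TPM of the 13 apolipoprotein genes in each library, stacked by gene (other 4: Apoa5, Apoc2, Apoc4 and Apom). The bars reach 54118 to 60802 TPM at 0 h and 31995 to 35765 TPM at 48 h, and Apoa4, in black, is a hairline at most at 0 h and a thin band at 48 h.

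Outside the 31 genes, 8 lists of related genes held 135 further genes, of which 128 could be tested. Of these, 45 (35.2%) were lower and 17 (13.3%) were higher at 48 h, with a median log2 fold change of -0.22. Over all genes tested the shares were 19.3% lower and 21.4% higher, and the counts of each list below stand against these. With library size in place of TMM, 34 of the listed genes were lower and 30 higher. Of all 17037 genes tested, 2108 (12.4%) were then lower and 5309 higher, and list counts with library size stand against these numbers. The lists were drawn up from general knowledge with earlier results of these data known, and some genes stand in more than 1 list.

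Of 22 genes of the COPII coat and export, 4 were higher and 3 lower, with a median of 0.15. Sec13, a subunit of the outer coat, rose (log2 fold change 0.79), as did Mcfd2, part of a cargo receptor (0.38), and the inner coat subunit Sec23a (0.36). Both Mcfd2 and Sec23a lost their call without replicate 1 or 2 at either time point (adjusted p 0.0501 to 0.0878). The list then had 2 higher genes without either 0 h library and 1 without either 48 h library, and library size in place of TMM gave 11. The cargo factors for large particles went the other way, Mia3 by -0.76 and Mia2 by -0.71, as did the scaffold Sec16b by -0.56. Among 18 tested genes of lipid supply, 8 were lower and 1 was higher (3 with library size), with a median of -0.35. Acsl1, which activates fatty acids, had a log2 fold change of -1.81, Fitm1, which partitions triglyceride into droplets, of -1.52, and Soat2, the cholesterol esterifying enzyme of the hepatocyte, of -1.19, while the sterol-responsive Tmem97 rose by 0.51.

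The list of other apolipoproteins and HDL-carried proteins held the largest rises. Of 16 tested, 5 were higher and 4 lower, with a median of 0.09. The lower genes numbered 1 without replicate 3 at 0 h or with library size in place of TMM, and 2 without any 1 of the 48 h libraries or under the replicate block. The acute-phase HDL proteins Saa2 and Saa1 had log2 fold changes of 8.55 and 7.08, and the pentraxin Apcs of 3.25. Pon1, an HDL-bound esterase, had -1.29, Apol9b -0.67 and Serpinf2, the plasmin inhibitor, -0.46. Apol9b lost its call without replicate 1 or 3 at 0 h or replicate 1 at 48 h (adjusted p 0.0677 to 0.0917) and with library size (0.121). Serpinf2 lost its own without replicate 3 at 0 h or replicate 2 or 3 at 48 h (0.0541 to 0.0715), under the replicate block (0.0537) and with library size (0.134). Saa1 and Saa2 are near-identical copies, and Apol9b has a close copy too, so the split of reads within such pairs is uncertain. Of the 5 genes of apoB RNA editing, Apobec1, the editing enzyme (-0.83), and A1cf, its partner (-0.76), fell, while the RNA-binding proteins Syncrip (0.73) and Khsrp (0.49) rose.

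Other receptors, adaptors and retention factors had 5 of 18 lower and 1 higher (median -0.22). The lower genes numbered 8 with TMM factors from protein-coding genes, and the higher ones 2 with library size or without replicate 3 at 0 h. Sdc1, the heparan sulfate proteoglycan that binds remnants on hepatocytes, rose by 0.63 (edgeR adjusted p = 0.032), a call lost under the replicate block (adjusted p = 0.0623) and without replicate 1 or 2 at either time point (0.0614 to 0.109). Hspg2 (-0.81), Stab2 (-0.73) and Stab1 (-0.67) fell, and Stab2 is also 1 of the endothelial markers above. In the list of lipase folding and control, 6 of 8 were lower and 1 higher (median -0.74). The secreted protein Angptl6 had a log2 fold change of -0.96, the folding factor Sel1l of -0.84 and the lipase maturation factor Lmf1 of -0.81, whereas its relative Lmf2 rose by 0.44. Angptl6 lost its call without replicate 2 or 3 at 48 h (adjusted p 0.0514 and 0.0503).

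Among 29 tested regulators, 9 were lower and 2 higher (4 higher with library size), with a median of -0.24. The nuclear receptor Nr0b2 (SHP), a repressor in bile acid signalling, had a log2 fold change of -1.94, the glucose-responsive factor Mlxipl (ChREBP) of -1.53 and Cebpa, a factor of hepatocyte differentiation, of -0.97. The forkhead factors Foxa3 and Foxo1 rose by 0.91 and 0.47, the latter losing its call without replicate 2 or 3 at 0 h or replicate 1 or 2 at 48 h (adjusted p 0.092 to 0.108). Of 20 sterol-regulated and LXR target genes, 3 of which are members of the 31, 12 were lower and 2 higher (median -0.51), against 19.3% and 21.4% of all genes tested. The desaturase Scd1 had a log2 fold change of -3.68, and the sterol transporters Abcg8 and Abcg5, which pump cholesterol into bile, of -1.86 and -1.59. Cyp7a1, the rate-limiting enzyme of bile acid synthesis, rose by 1.75 (edgeR adjusted p = 0.0018).

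**Figure D5:**
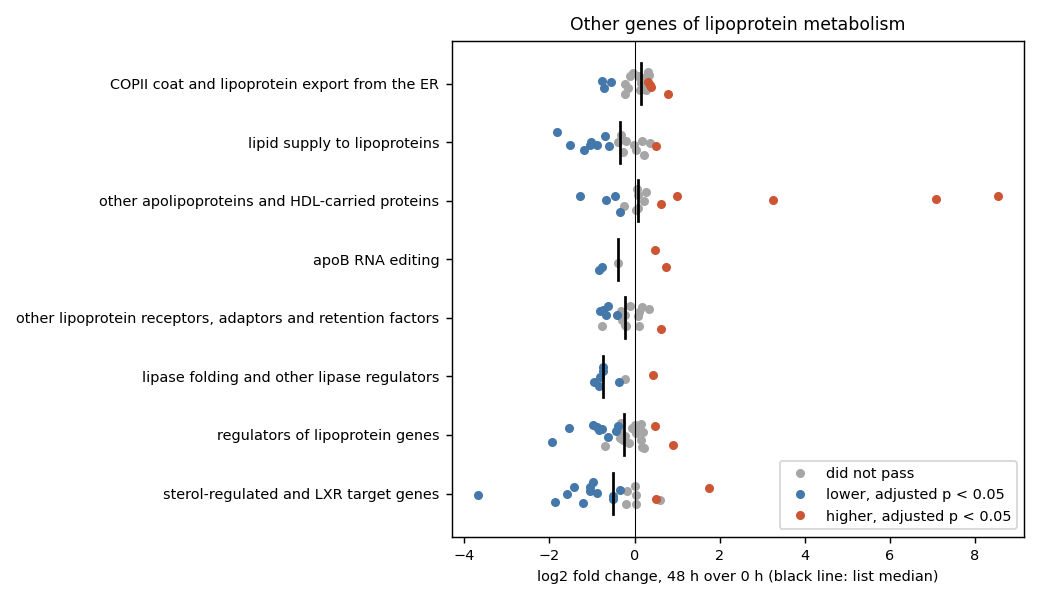
Log2 fold change (48 h over 0 h) of each tested gene in the 8 lists of related genes; color marks an adjusted p under 0.05 in edgeR and the black line is the list median. The medians run from -0.74 in the lipase list to 0.15 in the COPII list, and the points at 8.55 and 7.08 are Saa2 and Saa1.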

How the data were processed

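Bulk RNA-Seq of primary mouse hepatocytes was analysed in 6 libraries, grouped by the labels into 0 h and 48 h after PHx (n = 3 each). The authors deposited raw read counts per gene in htseq-count layout. The submitters' processing notes name FastQC 0.11.5, Trim Galore 0.6.4, STAR 2.6, HTSeq 0.12.4 and DESeq2 with build mm10; the annotation, the counting mode and the strand setting are not given in the sources used here. All gene identifiers matched GENCODE M21, which gave names, coordinates and exon lengths. Reads on no gene made up 24.3% to 32.7% of the reads in the files, ambiguous reads 4.27% to 5.29%, and both were left out.

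Genes counted 10 times or more in 3 or more libraries were tested with edgeR 4.0.16 (R 4.3.3): TMM factors, which were 0.913 to 0.950 at 0 h and 1.02 to 1.11 at 48 h, the quasi-likelihood F test with time as the only term, and Benjamini-Hochberg adjustment over all 17037 genes. The standard error is the log2 fold change divided by the square root of F. The test was also run on simulated counts, and the outcome is not reported here. Ratios within libraries were compared with exact permutation tests (scipy 1.17.1). Libraries of a group differed by far more than counting noise (mean chi-square per gene of at least 25.8). Same-numbered libraries come from different mice, and no block was used. Floors cover counting error only, as reads carry no molecular identifiers.

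The 31 genes, the lists, the ratios and the motifs were chosen with earlier results of these data known. Every member is named; members past an adjusted p of 0.05 with at least a 2-fold difference, or over 1000 TPM in a library, are given per library. From each list of related genes, up to 3 rises and 3 falls with the largest changes, a mean of at least 1 CPM and an adjusted p under 0.05 are named. Alternatives were DESeq2 1.42.0, 4 other scalings, 2 other filters, the replicate number as a block and leaving out each library.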

Additional observations from a re-analysis of the deposited data

How the results depend on the processing

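Of the 18 called members, 15 kept their direction and call in all 14 alternatives; the exceptions are Abca1, Sar1b and Scarb1. Library size in place of TMM shifted the median log2 fold change of all genes by 0.20 and moved the share of higher genes among all calls from 52.5% to 71.6%. With it, genes lower at 48 h numbered 2108 (12.4% of those tested), pathway-list genes higher numbered 30 and 13 members were lower. The log2 fold changes of Apom, Apoc4, Lcat and Lrpap1 turned to 0.01, 0.09, 0.00 and 0.13. DESeq2 called 20 members lower, where 19.2% of all genes tested were lower. TMM from protein-coding genes gave 19 members, where 21.8% of all genes tested were lower. The members higher numbered 2 in every alternative. Among members that did not pass, Abcg1 turned to -0.02 with TMM from protein-coding genes. Over the fits that left out 1 library, its log2 fold change ran from -0.11 (without replicate 1 at 0 h) to 0.15, turning negative also without replicate 1 or 2 at 48 h (-0.02 each). That of Apoc2 ran from -0.11 (without replicate 3 at 0 h) to 0.30, with -0.09 without replicate 2 at 48 h, and that of Angptl8 from -0.09 (without replicate 3 at 48 h) to 0.86. The causes were not tested, beyond the shift that the scaling itself applies to all genes.

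Leaving out 1 library left 15 to 16 members lower and 2 higher, where 15.4% to 19% of all genes tested were lower. The share of counts on the 31 genes differed by -1.32 percentage points, by -1.54 of protein-coding counts without mitochondrial genes, and by -1.06 without Apob. With the replicate number as a block, 16 members were lower and 2 higher. For libraries with equal numbers, the deviations correlated at 0.0335 (replicate 1), -0.0674 (replicate 2) and -0.138 (replicate 3). With only 3 libraries per time point, these correlations cannot decide whether samples with equal numbers shared a preparation day or batch. Depth limits the estimates most for Vldlr, at 8 to 61 counts.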

Other observations

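The 48 h libraries differed among themselves in several genes that rose. Replicate 3 was the lowest of the 3 for Apoa4 (138 CPM against 383 and 451 CPM), Tm6sf2 (46.6 CPM against 71.9 and 69.9 CPM), Saa1 (1439 CPM against 3089 and 1515 CPM) and Apcs (147 CPM against 565 and 274 CPM). Replicate 1 was the highest for Saa1, Saa2 and Apcs, and replicate 2 for Apoa4. The order was not shared by all genes that rose: Cyp7a1 was lowest in replicate 1 (186 CPM against 401 and 202 CPM), and Foxa3 was nearly level (98.1, 94.5 and 97.1 CPM). Angptl8, which did not pass, had its highest value in replicate 3. These genes were chosen after their values were seen. The 3 libraries are too few to relate these genes to each other.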
